A study of Rattus norvegicus with 6 samples.

Results

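The 10 genes described here encode chaperones of the endoplasmic reticulum (ER), the disulfide isomerases that work with them, and XBP1, a transcription factor that acts on genes of this compartment. They were taken by symbol from the deposited tables, which list 18631 genes. All 10 were found, and all 10 were among the 13423 genes kept after removal of low counts. Polyadenylated RNA came from rat vascular smooth muscle cells in culture, which form the contractile layer of arteries, and was sequenced as 6 libraries. Of these, 3 are labelled with a MIAT knockdown genotype and titled KD_M, and 3 are labelled WT and titled Scr, called Scr control here. The labels describe siRNAs and ASOs (antisense oligonucleotides) at 50 nM in all for 72 h, in the same words for all libraries. What was given to the control cells is not stated. MIAT is a long noncoding RNA that the series title links to the helicase DHX9, nucleolar homeostasis and mitotic progression. Miat itself was not analysed here, so the group labels were not checked against it.

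Proteins that enter the ER are folded there by HSPA5 (also called BiP), an HSP70 family chaperone, by HSP90B1, the ER form of HSP90, and by the lectins calnexin and calreticulin, which hold glycoproteins while disulfide isomerases act on them. When unfolded proteins build up, the sensors IRE1, PERK and ATF6 start the unfolded protein response. IRE1 splices Xbp1 mRNA into the form that encodes the active factor, and XBP1 and ATF6 raise the transcription of chaperone genes. Smooth muscle cells in culture secrete much extracellular matrix and so pass large amounts of protein through this compartment. Counts per gene do not separate spliced from unspliced Xbp1 mRNA, so the values given for Xbp1 are those of both forms.

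A known control element of these genes is the ER stress response element (ERSE), a site for ATF6 and XBP1 together with the factor NF-Y. Promoter windows from 250 bases before to 50 bases after the gene start were taken from RefSeq (GRCr8 assembly) and were found for 8 of the 10 genes, Pdia3 and Pdia6 being the others. The letters CCAAT, then 9 bases of any kind, then CCACG were searched on both strands. They occurred in the windows of 5 of the 8 genes, among them Hspa5, Xbp1, Calr and, with 2 matches, Hsp90b1, and in 22 of all 33469 windows (0.0657%). A form without the last letter, ending in CCAC, is contained in the full form. It was also present in the Pdia4 window, on the opposite strand, and in 0.314% of all windows. The related element ATTGG, any 1 base and CCACG, whose last letters can overlap an ERSE, was found in none of the 8 windows and in 0.0508% of all. The XBP1-type element TGACGTGG was found in none of the 8 and in 0.595% of all, and TGACGTGA in Hspa5 and in 0.400% of all. A match describes letters only and says nothing about binding in these cells. Hspa5, Xbp1 and Calr passed the test described below only where the library number was fitted as a block, and Hsp90b1 did not pass. The stretches below show the matches for Hspa5, Xbp1 and Calr (the 250 bases before the start) and, for comparison, for Hsp90b1. Each is written 5′ to 3′ on the strand of the gene, with the ERSE match in capitals. In Calr and in the second match of Hsp90b1 the element lies on the opposite strand, so the capitals read as its reverse complement.
Hspa5: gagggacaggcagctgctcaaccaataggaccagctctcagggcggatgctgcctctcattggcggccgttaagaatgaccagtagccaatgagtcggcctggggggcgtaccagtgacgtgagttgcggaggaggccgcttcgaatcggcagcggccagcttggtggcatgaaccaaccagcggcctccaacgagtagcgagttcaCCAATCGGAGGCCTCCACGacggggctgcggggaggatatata
Xbp1: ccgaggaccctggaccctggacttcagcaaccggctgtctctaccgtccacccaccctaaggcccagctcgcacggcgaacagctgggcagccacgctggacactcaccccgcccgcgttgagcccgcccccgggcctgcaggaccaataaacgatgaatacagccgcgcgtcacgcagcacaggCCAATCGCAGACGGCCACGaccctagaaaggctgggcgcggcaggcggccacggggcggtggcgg
Calr: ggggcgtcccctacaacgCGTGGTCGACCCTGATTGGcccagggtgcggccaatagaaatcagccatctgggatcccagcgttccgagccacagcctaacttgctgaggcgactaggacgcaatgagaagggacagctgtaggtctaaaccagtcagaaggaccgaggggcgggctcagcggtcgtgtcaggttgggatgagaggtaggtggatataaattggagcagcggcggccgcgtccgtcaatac
Hsp90b1: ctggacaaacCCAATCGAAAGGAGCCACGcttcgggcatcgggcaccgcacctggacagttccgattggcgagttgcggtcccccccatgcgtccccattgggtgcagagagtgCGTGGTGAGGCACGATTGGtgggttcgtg
In GRCr8 these stretches are chr3:38452766-38453015 on the plus strand (Hspa5), chr14:84604373-84604622 on the plus strand (Xbp1), chr19:40213117-40213366 on the plus strand (Calr) and chr7:23012337-23012479 on the minus strand (Hsp90b1). All lie upstream of the annotated start. The match ran from 43 to 25 bases before the start in Hspa5, from 65 to 47 in Xbp1 and from 232 to 214 in Calr. In Hsp90b1 the matches ran from 176 to 158 and from 72 to 54 bases before the start.

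Most of these genes were abundant, as the deposited FPKM values show, which relate each count to the length of its gene and the size of its library. Calr had the highest level, 674 ± 53.3 FPKM in Scr control against 627 ± 59.3 FPKM with the knockdown (SD, n = 3), and ranked 95 among the 13423 tested genes by mean FPKM. Over all 6 libraries Calr ranged from 574 to 721 FPKM and stood above Hspa5, which ranged from 313 to 503 FPKM. Hspa5, Pdia3 (352 to 386 FPKM) and Hsp90b1 (292 to 370 FPKM) overlapped one another. Pdia6 (163 to 187 FPKM) and Canx (139 to 165 FPKM) overlapped as well, and Pdia4 followed at 108 to 126 FPKM. Xbp1 lay at 67.2 to 88.2 FPKM. The cochaperone genes Sdf2l1 (17.98 to 26.7 FPKM) and Dnajb9 (11.8 to 20.3 FPKM) were lowest, and their ranges overlapped. The share of library counts in the 10 genes together was 0.507% to 0.606% with the knockdown and 0.497% to 0.574% in the controls.

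**Figure D1:**
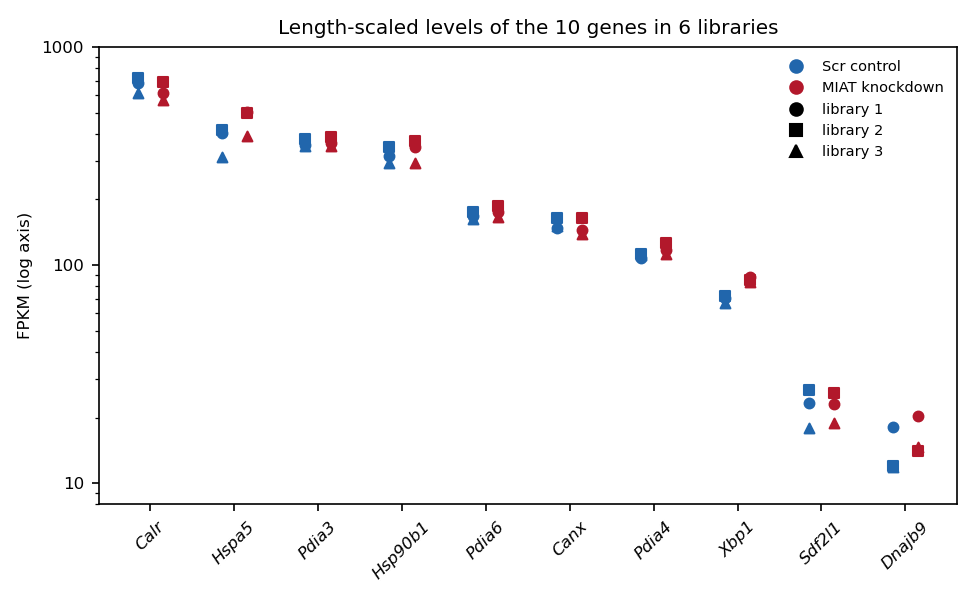
Level of each of the 10 genes in FPKM (log axis), 1 point per library, with Scr control in blue and MIAT knockdown in red and the marker shape giving the library number. Calr is highest at 574 to 721 FPKM and Dnajb9 lowest at 11.8 to 20.3 FPKM.

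Total counts ranged from 17793811 to 20121161 per library. Same-numbered libraries of the groups deviated together from their group means, with correlations across genes of 0.68, 0.52 and 0.58, and control library 3 differed most from the others of its group. Each comparison was therefore fitted in edgeR both without and with the library number as a block, and rose and fell are used only where the block fit gave an adjusted p below 0.05. In that fit 21.6% of all tested genes were called, 10.5% higher and 11.1% lower. The higher ones were 48.7% of the calls, and 77.5% with total count scaling. Without the block, edgeR called 0 of 13423 genes, with 19.2% at an unadjusted p under 0.05, limma-voom called 0 and DESeq2 699. Among cell type markers, those of fibroblasts and adventitia summed to 1429 to 1734 CPM (TMM-normalized counts scaled to library size) in knockdown and 2019 to 2175 CPM in control libraries, and 4 of the 5 fell. Smooth muscle markers summed to 7545 to 10624 CPM and 8659 to 10751 CPM, and 2 of 8 fell. Endothelial markers were low, at 4.57 to 6.04 CPM and 5.46 to 9.98 CPM in sum, with 1 of 4 tested lower. Macrophage and leukocyte markers summed to 22.2 to 26.5 CPM and 21.6 to 34.9 CPM, and Schwann cell markers to 5.83 to 6.55 CPM and 7.37 to 8.42 CPM, and none of the 4 and 2 tested passed. Ptprc, Tie1 and Sox10 were at 0 in every control library. The part of these markers in the results below was not tested, and fewer cells of a type cannot be told apart from less RNA per cell.

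Within the 10 genes the levels moved in different directions and by small amounts. Hspa5 and Xbp1 rose, Calr fell, and the other 7 did not pass the test. The 3 called genes make 30% of the 10, beside 21.6% of all tested genes, and the median log2 fold change of the 10 was -0.04 (0.07 with total count scaling), beside -0.01 over all tested genes. In the block fit with TMM no fold change of the 10 exceeded 1.16-fold in either direction. Without the block edgeR called 0 of the 10 and DESeq2 and limma-voom likewise 0, while in edgeR 1 of the 10, Xbp1, was below 0.05 before adjustment, beside 19.2% of all genes. The direction was the same in 3 of 3 pairs for 7 of the 10 genes, upward for 3 and downward for 4, which is the case for 56.5% of all tested genes (28.0% upward and 28.5% downward). The groups did not overlap for 1 of the 10, beside 26.0% of all tested genes.

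**Figure D2:**
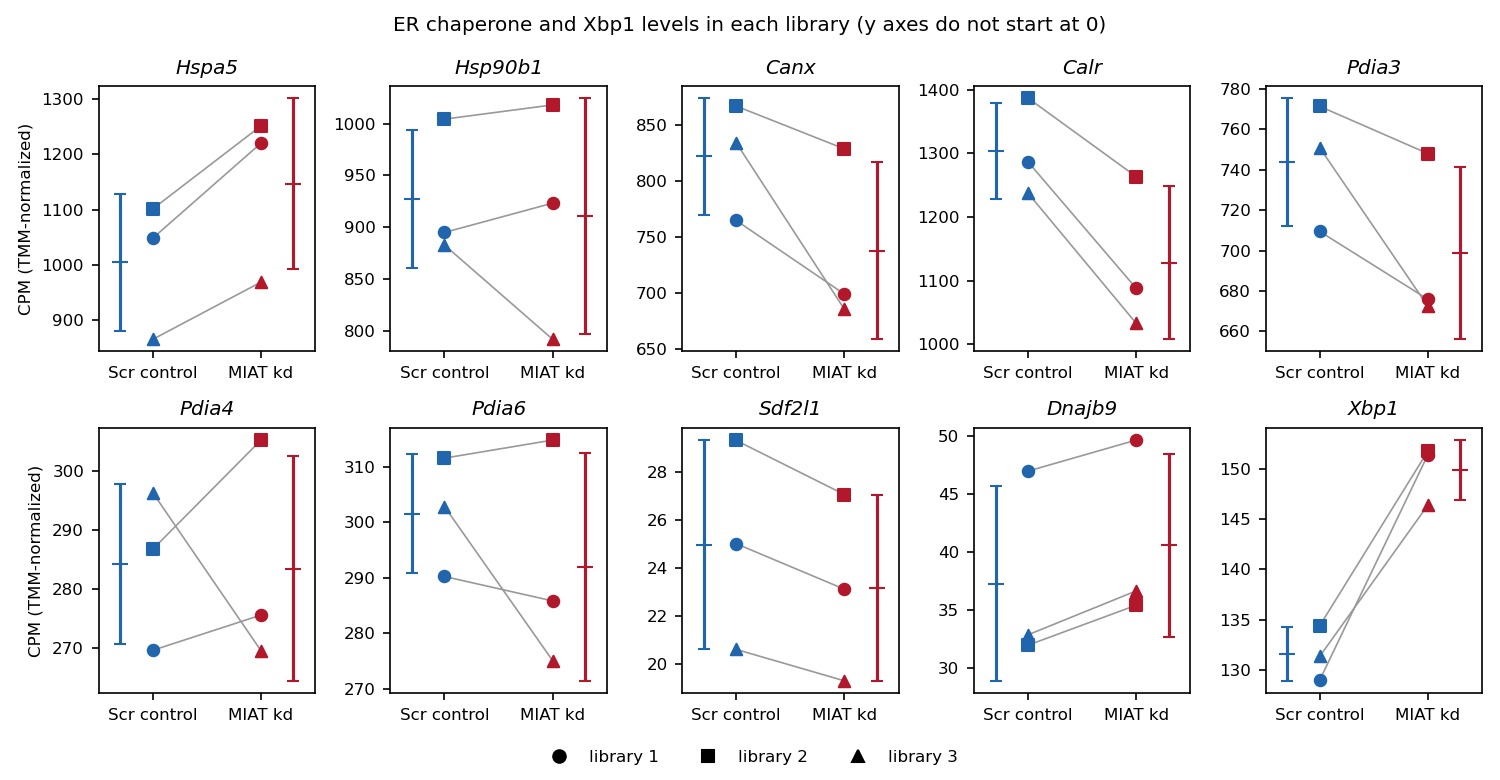
Level of each of the 10 genes in CPM after TMM normalization in Scr control (blue) and MIAT knockdown libraries (red). Lines join libraries with the same number, bars beside the points give mean ± SD (n = 3), and each y axis has its own range that does not start at 0. Only in the Xbp1 panel do the groups stay apart, at 129 to 134 against 146 to 152 CPM.

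Hspa5, the main HSP70 chaperone of the ER and the regulator that holds the stress sensors inactive, had 1220, 1252 and 968 CPM in the knockdown libraries, in the order of their numbers, against 1048, 1101 and 865 CPM in the controls. Both number 3 libraries were lowest in their group, so the groups overlapped although the knockdown library was the higher one in each pair. The pairwise log2 differences were 0.22, 0.18 and 0.16. The block fit estimated 0.19 (log2, standard error 0.053), a 1.14-fold rise (95% interval 1.05 to 1.24) with an edgeR adjusted p of 0.0370. Without the block the adjusted p was 0.512. The call ended with the block in DESeq2 (adjusted p = 0.0716), with DESeq2 size factors (0.0526), with the gene length correction (0.139), without pair 1 (0.25) and without pair 2 (0.226), where estimates stayed at 0.17 to 0.19. With total count scaling it was 0.30.

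Xbp1 had 151, 152 and 146 CPM in knockdown libraries and 129, 134 and 131 CPM in control libraries. Every knockdown library was above every control library. The pairwise log2 differences were 0.23, 0.17 and 0.16, and the block fit estimated 0.19 (log2, standard error 0.053), a 1.14-fold rise (95% interval 1.05 to 1.24, edgeR adjusted p = 0.0368). Without the block the adjusted p was 0.187. Blocked fits in which Xbp1 no longer passed were DESeq2 (0.18, adjusted p = 0.171), the length correction (0.14, 0.162), and those without pair 1 (0.17, 0.219) or pair 2 (0.19, 0.184). With total count scaling the estimate was 0.30.

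Calr, the soluble lectin chaperone and a calcium store of the ER lumen, had 1088, 1264 and 1033 CPM in knockdown libraries and 1287, 1387 and 1238 CPM in control libraries. The knockdown library was the lower one in each pair, while knockdown library 2 lay above control library 3. Log2 differences within pairs were -0.24, -0.13 and -0.26. The block fit estimated -0.21 (standard error 0.056), so that the knockdown level was 0.863 times the control level (95% interval 0.790 to 0.943, edgeR adjusted p = 0.0297). Without the block the adjusted p was 0.362. The call ended with the block and total count scaling, where the change was -0.10 (adjusted p = 0.168), without pair 1 (-0.19, 0.226) and without pair 2 (-0.25, 0.135).

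Canx, the membrane-bound lectin partner of calreticulin, had 699, 829 and 685 CPM in knockdown libraries and 765, 867 and 834 CPM in control libraries. It was below its control in each pair, by most in pair 3 (log2 difference -0.28, against -0.13 and -0.07). The block estimate was -0.16 (log2, standard error 0.061, edgeR adjusted p = 0.0968), which did not pass. Its 95% interval, 0.813 to 0.986 times the control level, is not adjusted for the number of genes tested.

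Hsp90b1, which folds a narrow set of clients including integrins, had 923, 1018 and 792 CPM in knockdown libraries and 895, 1004 and 883 CPM in control libraries. It was slightly above its control in pairs 1 and 2 and below it in pair 3. The block estimate was -0.03 (log2, standard error 0.061, edgeR adjusted p = 0.755), with an interval of 0.889 to 1.08 times the control level.

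None of the 3 disulfide isomerases, which form and rearrange disulfide bonds, passed the test. Pdia3, the isomerase that binds calnexin and calreticulin, had 676, 748 and 672 CPM in knockdown libraries and 709, 771 and 751 CPM in control libraries, lower in each of the 3 pairs. Pdia4 had 276, 305 and 270 CPM in knockdown and 270, 287 and 296 CPM in control libraries, and Pdia6, a regulator of IRE1 activity as well as a folding enzyme, had 286, 315 and 275 CPM in knockdown and 290, 312 and 303 CPM in control libraries. Number 2 libraries held the highest value of both genes in the knockdown group, and pair 3 was the pair with the lowest difference for each of the 3 isomerases. In edgeR with the block the log2 fold changes were -0.09 (adjusted p = 0.270), -0.00497 (0.965) and -0.05 (0.574) for Pdia3, Pdia4 and Pdia6. The intervals were 0.860 to 1.02, 0.905 to 1.10 and 0.884 to 1.06 times the control level.

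Sdf2l1 and Dnajb9 encode regulators of HSPA5 that are induced by the unfolded protein response, Dnajb9 being a widely used target of XBP1. Sdf2l1 had 23.1, 27.0 and 19.3 CPM in knockdown libraries and 25.0, 29.3 and 20.6 CPM in control libraries. It was below its control in each pair by a similar step (log2 differences -0.11, -0.11 and -0.09), and the library number moved it more than the group did. Dnajb9 had 49.6, 35.4 and 36.6 CPM in knockdown libraries and 46.9, 32.0 and 32.9 CPM in control libraries. It was highest in the number 1 library of both groups, and above its control in each pair. Neither passed in edgeR with the block, with log2 fold changes of -0.11 (standard error 0.079, adjusted p = 0.358) for Sdf2l1 and 0.13 (0.067, adjusted p = 0.211) for Dnajb9. With total count scaling and the block, Dnajb9 passed at a log2 fold change of 0.23 (adjusted p = 0.0402). That scaling shifted the median over all genes by 0.107 (log2), and the signs of Hsp90b1, Pdia3, Pdia4 and Pdia6, none of them called, turned with it.

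**Figure D3:**
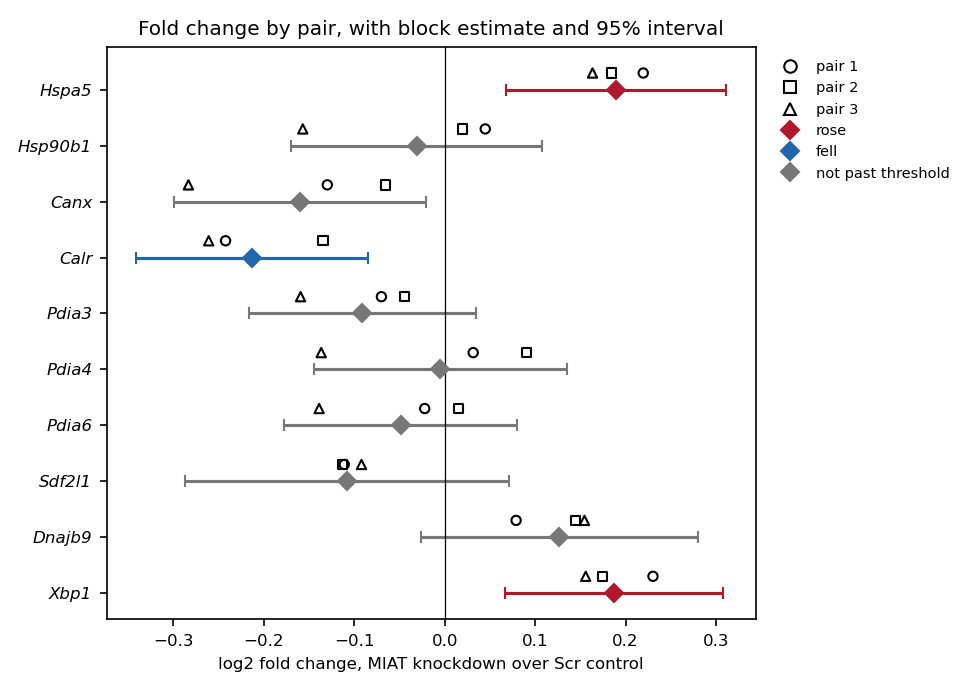
Log2 fold change of MIAT knockdown over Scr control for each of the 10 genes. Open markers are the differences within pairs 1 to 3, and diamonds with bars are the block estimate and its unadjusted 95% interval, red where the gene rose, blue where it fell and grey where it did not pass. Hspa5 and Xbp1 lie near 0.19 and Calr near -0.21.

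Ratios of counts within a library do not depend on scaling. These ratios were chosen after the values were seen and are given as a description, with no test. The ratio of Hspa5 to Calr was 1.12, 0.991 and 0.938 with the knockdown, against 0.814, 0.794 and 0.699 in the controls, in the order of the library numbers. Hspa5 thus had about as many counts as Calr in the knockdown libraries and fewer in the controls, with no overlap between the groups. The ratio of Hspa5 to Hsp90b1 was 1.32, 1.23 and 1.22 against 1.17, 1.10 and 0.979, also without overlap. The ratio of Hspa5 to Xbp1 was 8.06, 8.25 and 6.61 against 8.13, 8.19 and 6.58, nearly the same in the libraries of a pair and lowest in both number 3 libraries. The groups also overlapped in the ratio of Calr to Canx (1.51 to 1.56 against 1.48 to 1.68) and of Pdia4 to Pdia6 (0.964 to 0.980 against 0.920 to 0.978).

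**Figure D4:**
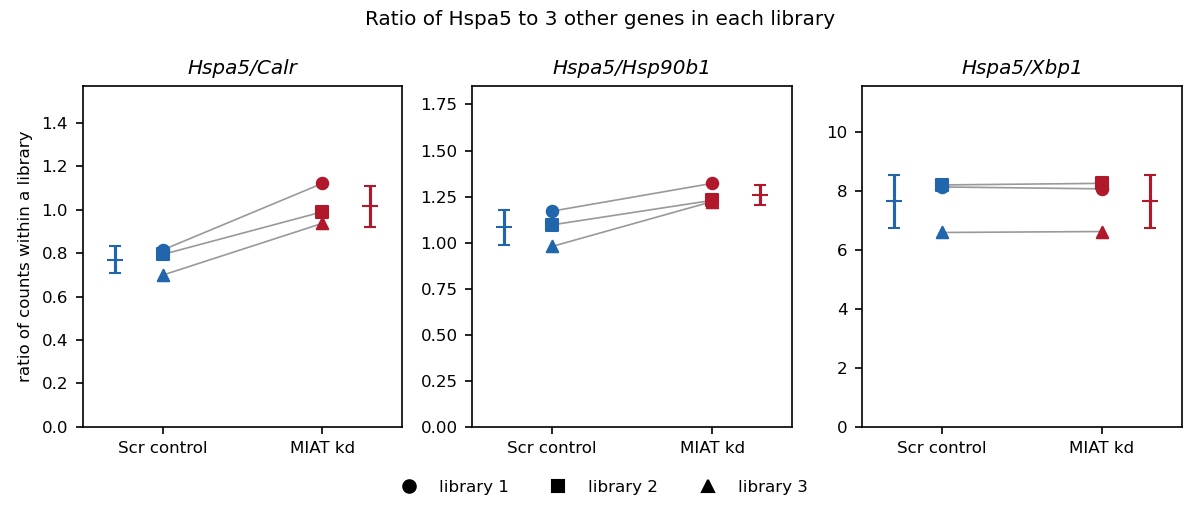
Ratio of Hspa5 counts to Calr, Hsp90b1 and Xbp1 counts within each library, with lines joining same-numbered libraries and bars giving mean ± SD (n = 3). The Hspa5 to Calr ratio is 0.699 to 0.814 in Scr control (blue) and 0.938 to 1.12 in MIAT knockdown (red), while the Hspa5 to Xbp1 ratio is nearly level within each pair.

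Across the 6 libraries the 10 genes did not follow a single profile. The closest pair was Canx and Pdia3, with a Pearson correlation of log2 CPM of 0.998 over 6 libraries, and the most opposed was Pdia3 and Dnajb9 at -0.708. Hspa5 and Xbp1 correlated at 0.633, and Calr and Xbp1 at -0.589. These points share the groups and the library numbers, and the values are descriptions. A search for similar profiles ran over the 10478 genes with a mean of at least 5 CPM, with the 10 genes left out of the ranking. Only the 5 highest are named, so high values follow in part from that choice, and no test was made. Those most like Hspa5 were Efhd2 (correlation 0.993), Nes (0.993), Ccnd3 (0.992), Arhgap6 (0.992) and Dnmt1 (0.991). Those most like the mean standardized profile of the 10 genes were Mprip (0.996), Tagln (0.990), Stxbp6 (0.984), Tm9sf4 (0.982) and Slc29a1 (0.975).

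Other genes of ER protein handling, and Atf4 with targets of PERK and ATF4 that need not act in the ER, were described in 9 lists. Of their 160 genes, 159 were tested, of which 18 rose, 30 fell and 111 did not pass in edgeR with the block. Without the block edgeR called 0, with 36 below 0.05 before adjustment, limma-voom 0 and DESeq2 11. Under total count scaling and the block 38 were higher and 12 lower. Outside the PERK and ATF4 list, 10 of 143 rose and 29 fell (6.99% and 20.3%), beside 10.5% and 11.1% of all tested genes, and the median was -0.05. With total count scaling and the block 27 of the 143 were higher and 11 lower, with a median of 0.06. These shares, 18.9% and 7.69%, stood beside 21.0% and 6.10% of all tested genes. In the block fit without pair 1, 2.80% were higher and 4.90% lower, beside 3.96% and 4.97% of all tested genes. Without pair 2 both shares were 0.699%, beside 2.56% and 2.85%. Without pair 3 they were 9.79% and 25.2%, beside 14.1% and 16.2%. In either direction, 21.6% of all tested genes were called in edgeR with the block. The share was 18.75% for disulfide exchange, 20.7% for the translocon list, 20.8% for COPII transport and 21.4% for HSP70 and HSP90 partners. For sensors and transcription factors it was 30.8%, and for collagen folding and for ER-associated degradation 37.5%. The lectin cycle had 42.9% and the PERK and ATF4 list 56.25%. Up to 3 genes with the largest change are named per list. Of these 27, Chac1, Ern1, Plod1 and Ppp1r15a passed in each of the 9 fits with the block. Without pair 2 these were the only 4 to pass, and without pair 1 there were 13. Under total count scaling with the block Creb3l2, Erp29, Ganab, Hyou1, Rpn2, Sec24c, Sec63 and Tmx4 no longer passed, with the length correction Creb3l2, Sec24c, Sec61g, Sec63, Sel1l, Tmx4, Txndc12 and Uggt1, and in DESeq2 Erp29, Sec63, Spcs2 and Txndc12.

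Among partners of HSP70 and HSP90 in the ER, 1 of 14 rose and 2 fell, with a median log2 fold change of -0.08. Under total count scaling and the block the median was 0.03, and 3 were higher and 0 lower. Manf, a secreted ER protein induced by stress, rose 1.20-fold from 158 ± 10.4 to 190 ± 3.92 CPM (SD, n = 3). Hyou1, a large chaperone and nucleotide exchange factor for HSPA5, fell from 210 ± 32.7 to 175 ± 20.6 CPM, and Sec63, which couples HSPA5 to the translocon, from 199 ± 12.1 to 173 ± 11.7 CPM. Manf rose as Hspa5 did, and Hyou1 and Sec63 fell.

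In the lectin cycle, which trims and reglucosylates N-glycans for calnexin and calreticulin, 3 of 7 fell and 0 rose, with a median of -0.15 (-0.05 with total count scaling and -0.07 without pair 3). They were Prkcsh and Ganab, the subunits of glucosidase II, at log2 fold changes of -0.33 and -0.25, and Uggt1, the folding sensor that returns glycoproteins to the lectins, at -0.32. The other 4 ranged from -0.15 (Uggt2) to 0.07. Of the disulfide exchange genes 1 of 16 rose and 2 fell, with a median of -0.03. Under total count scaling and the block the median was 0.08, and 3 were higher and 0 lower. In the block fit with TMM, Txndc12 rose by 0.22 on the log2 scale, while Tmx4 and Erp29 had -0.27 and -0.19. P4hb, the isomerase gene with the highest FPKM of this list, did not pass, with a log2 fold change of -0.13 (edgeR adjusted p = 0.116).

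Collagen folding and modification genes fell in 6 of 16 cases and rose in 0, with a median of -0.17. With total count scaling the median was -0.06 and 4 were lower, and without pair 1 or pair 2 the lower ones numbered 2 and 1. Plod1, a lysyl hydroxylase, fell from 300 ± 65.4 to 223 ± 40.2 CPM, P3h1, a prolyl hydroxylase, by a log2 fold change of -0.33, and Fkbp10, a prolyl isomerase, from 450 ± 35.0 to 367 ± 28.9 CPM. Serpinh1, the collagen chaperone HSP47, did not pass, with a log2 fold change of -0.04 (edgeR adjusted p = 0.709). The fibroblast and adventitial markers given above were also lower in the knockdown libraries.

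In ER-associated degradation, which XBP1 is known to induce, 3 of 24 were higher and 6 lower, with a median of -0.04. Under total count scaling and the block the median was 0.07, and 5 were higher and 2 lower. With the length correction 3 were higher and 1 lower. Without pair 1 the numbers were 1 and 2, without pair 2 both were 0, and without pair 3 they were 3 and 7. Herpud1, which organises the degradation complex, rose 1.33-fold, from 77.0 ± 16.9 to 101 ± 6.73 CPM, whereas Edem3, a mannosidase, and Sel1l, a subunit of the same complex, had log2 fold changes of -0.36 and -0.35. Edem1, a widely used XBP1 target, did not pass, with a log2 fold change of -0.00486 (edgeR adjusted p = 0.960). In the translocon and N-glycosylation list 4 of 29 rose and 2 fell, with a median of 0.03. Under total count scaling 10 were higher and 0 lower. With the length correction the median was -0.03, and 1 was higher and 2 lower. The numbers were 1 and 0 without pair 1, both 0 without pair 2, and 4 and 3 without pair 3. In the block fit with TMM, Sec61g and Spcs2 rose by 0.28 and 0.21 and Rpn2 fell by 0.25, all on the log2 scale. Genes of COPII vesicles, which carry cargo out of the ER, fell in 5 of 24 cases and rose in 0, with a median of -0.08. With total count scaling the median was 0.03, and 5 were higher and 2 lower. The lower ones numbered 1 without pair 1, 0 without pair 2 and 6 without pair 3, where 2 were higher. Sec31a, Sec24d and Sec24c, coat subunits, had log2 fold changes of -0.35, -0.30 and -0.25.

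Among sensors and transcription factors of the unfolded protein response 1 of 13 rose and 3 fell. The riser was Ern1, which encodes the sensor IRE1, at 77.1 ± 20.5 against 59.2 ± 13.9 CPM (log2 fold change 0.38). Wfs1, an ER membrane protein, and Creb3l2, a transcription factor of the secretory pathway, had -0.44 and -0.23. Atf6 and Eif2ak3, which encode the sensors ATF6 and PERK, did not pass (edgeR with the block, log2 fold changes -0.20 and -0.14, adjusted p = 0.0631 and 0.167). The list median was -0.08. Under total count scaling and the block it was 0.03, and 1 was higher and 1 lower.

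The PERK and ATF4 list had the highest median of the 9 lists. In it 8 of 16 were higher, Atf4 itself among them, 1 was lower and 7 did not pass. The median log2 fold change was 0.36, beside -0.04 for the 10 chaperone and Xbp1 genes. Without pair 1 the median was 0.20, with 6 higher and 1 lower, and without pair 2 it was 0.34, with 5 and 0. Without pair 3 it was 0.63, with 11 and 1. Chac1, a glutathione-degrading enzyme, stood at 53.7 ± 11.1 against 18.5 ± 7.28 CPM, Trib3, a pseudokinase, at 45.3 ± 5.41 against 21.4 ± 12.9 CPM and Ppp1r15a, which restores translation, at 202 ± 41.4 against 99.1 ± 22.5 CPM. Ddit3, which encodes CHOP, did not pass, with a log2 fold change of 0.14 (edgeR adjusted p = 0.136). The difference between this list and the 10 genes was not tested.

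**Figure D5:**
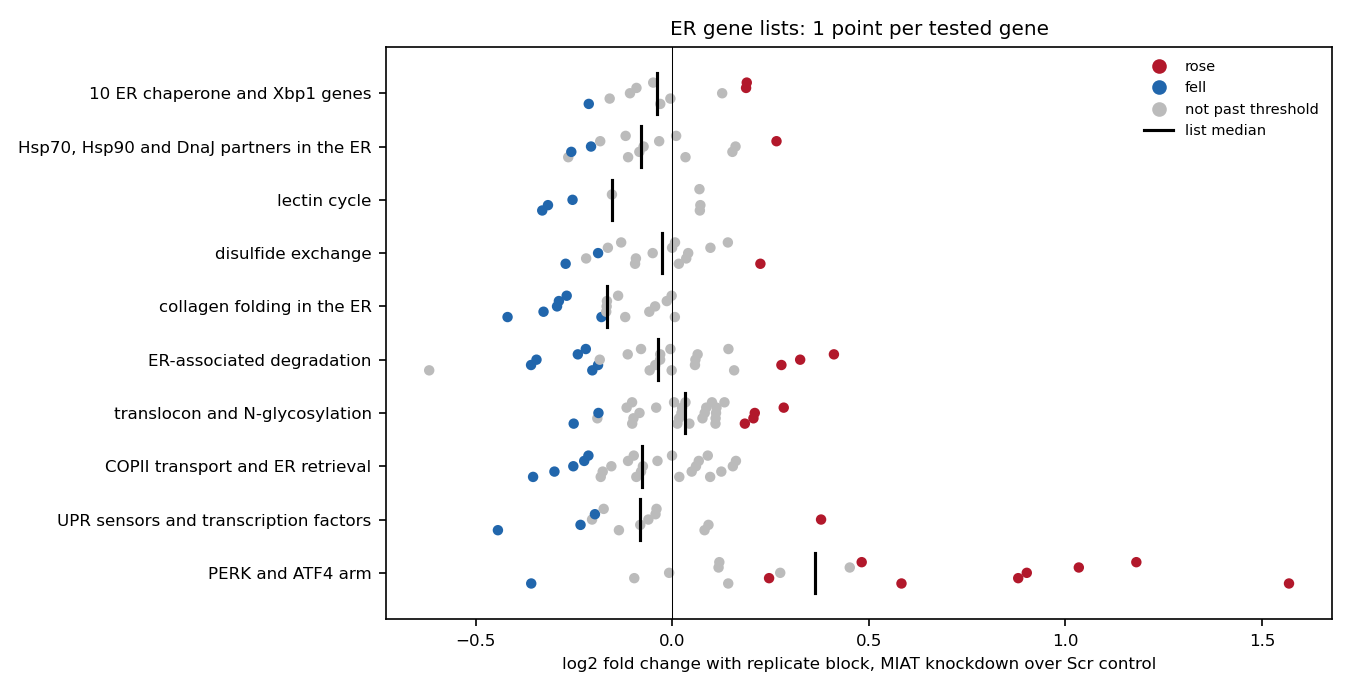
Log2 fold change with the replicate block for each tested gene of the 9 lists and of the 10 ER chaperone and Xbp1 genes, red where a gene rose, blue where it fell and grey where it did not pass, with a black line at the list median. The 10 genes lie between -0.21 and 0.19, while the PERK and ATF4 list reaches 1.57.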

How the data were processed

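The authors deposited raw counts for each gene symbol and, in a separate table, FPKM values. Every deposited FPKM value above 0 could be rebuilt from the counts, 1 length for each gene and the library totals to within a relative 1e-06. The build, like the aligner, counting program and strand setting, is not given in the sources used here. Libraries were grouped by their titles.

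Genes were filtered with filterByExpr and counts normalized with TMM in edgeR 4.0.16 under R 4.3.3. Knockdown was compared with control by edgeR's quasi-likelihood test with Benjamini-Hochberg adjustment across 13423 genes and a threshold of 0.05, as designed without a block, on 4 residual degrees of freedom. Numbers in the titles pair the libraries by the data only. The correlations of deviations were 0.68, 0.52 and 0.58 for same-numbered and -0.56 to -0.05 for other libraries, where deviations from a group mean partly build in that contrast. The block fit, with 2 residual degrees of freedom, is therefore printed as well, and the estimates, standard errors and intervals come from it. For the fit without it, numbers of genes passing are given and, for Hspa5, Xbp1 and Calr, the adjusted p. Its standard errors for these were 0.143, 0.064 and 0.111, against 0.053, 0.053 and 0.056 with the block. Standard errors were derived from the test statistic. Pairwise differences used log2(CPM + 0.5). Alternatives used DESeq2 1.42.0, limma 3.58.1 on counts and on log2(FPKM + 1) and log2(FPKM + 0.1), other scalings and filters, a loess correction for gene length, and left-out libraries or pairs.

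The named genes are the 10 genes, up to 3 genes per list that changed most among those passing with the block, and the 5 genes most like Hspa5 or the mean profile. Edem1, P4hb, Serpinh1, Uggt2, Ddit3, Atf4, Atf6 and Eif2ak3 are outside that rule, picked with their values in view. The genes and lists were chosen with earlier results of these data known. Separate cultures are not stated for the libraries. The p-values then measure the spread between these samples alone, which may be technical. No library was a copy of another: within groups, chi-square per degree of freedom was 21.6 to 89.8. All 10 symbols matched RefSeq, as a check of names only. The fits were also run on simulated counts with a pair effect built in. That run cannot show whether the block suits these data, and its outcome is not given here. A further promoter stretch is not reported here.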

Additional observations from a re-analysis of the deposited data

How the results depend on the processing

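Of the 10 genes, Hspa5, Xbp1, Calr and Canx kept their direction in all 23 alternatives. Without the block, edgeR with other scalings, filters or a library left out, limma-voom and limma on FPKM called 0 genes over all tested, 0 of the 10 and 0 of the lists, while DESeq2 called 699, 0 and 11. With the replicate block, over all genes, the 10 genes and the lists, edgeR called 2898, 3 and 48, DESeq2 1595, 1 and 33, limma-voom 3051, 3 and 50, total count scaling 3641, 3 and 50, DESeq2 size factors 2961, 2 and 49, and the length correction 2317, 1 and 33. Calls higher made 48.7% of all calls with the block and 77.5% with total count scaling. Block fits with pair 1, 2 or 3 left out called 1195, 736 and 4124 genes in all, 0, 0 and 3 of the 10, and 18, 7 and 62 of the lists. Each of these 3 fits has fewer samples than the full block fit. Beside its 2898 genes in all, calls were fewer without pair 1 or 2 and more without pair 3. The reason was not tested.

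Signs turned only for genes that were not called. Under total count scaling (no block, then block), limma on log2(FPKM + 1) and limma on log2(FPKM + 0.1), Hsp90b1 had 0.0803, 0.0769, 0.0768 and 0.0770, Pdia3 0.0168, 0.0164, 0.0166 and 0.0166, Pdia4 0.104, 0.103, 0.102 and 0.103, and Pdia6 0.0600, 0.0590, 0.0588 and 0.0591. Sdf2l1 had 1e-04 and 4e-04 in the limma fits on FPKM. Pdia4 had 0.0055 with no low-count filter. With 1 library left out and no block, Hsp90b1 ranged from -0.111 to 0.0679 and Pdia4 from -0.0584 to 0.0331. In the same fits Dnajb9 ranged from -0.0451 to 0.318 and Sdf2l1 from -0.233 to 0.0142. With the block and without pair 3, Hsp90b1 had 0.0294 and Pdia4 0.0583.

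Precision is limited by 3 libraries a group and by depth. Sdf2l1, with 372 to 522 counts per library, and Dnajb9, with 570 to 953, have the fewest counts of the 10.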
